A study of Mus musculus with 44 samples.

Results

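Immediate early and serum response genes are the genes that a cell transcribes first after a growth factor, cytokine, stretch or stress, before any new protein is made. The set described here holds 39 of them, chosen by gene name from a list and not by a cutoff on measured values. Each has 1 row in both tables, among 24150 genes in the subcutaneous table and 26940 in the intratracheal one, and all 39 passed the filter on low values in each of the 11 comparisons. They comprise 7 AP-1 and ATF factors (Fos, Fosb, Jun, Junb, Jund, Atf3, Maff), 3 EGR factors (Egr1, Egr2, Egr3), 3 NR4A orphan receptors (Nr4a1, Nr4a2, Nr4a3) and 4 Krüppel-like factors (Klf2, Klf4, Klf6, Klf10). A further 9 are Srf and other nuclear regulators (Srf, Ier2, Ier3, Ier5, Btg2, Csrnp1, Sertad1, Gadd45b, Gadd45g). The last 13 are 8 feedback inhibitors (Dusp1, Dusp2, Dusp5, Dusp6, Zfp36, Nfkbia, Nfkbiz, Trib1) and 5 matrix, receptor and other effectors (Ccn1, Ccn2, Tnfrsf12a, Rhob, Slc25a25).

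In this response, kinase cascades act on factors already bound to DNA, above all SRF with its ETS and MRTF partners, and CREB. Transcription then starts within minutes and ends soon after, because the products include phosphatases (DUSPs), an mRNA decay factor (ZFP36) and inhibitors of NF-kappaB that shut the signal off. FOS and JUN proteins join into AP-1, which carries the signal on to later genes. In lung the same genes also respond to handling of the tissue, ventilation and shear stress on endothelium, where KLF2 and KLF4 are well known.

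Lungs of C57BL6j mice were sequenced as polyA RNA from pieces of about 3 mm3 to ask how a Timp2 mutation, and daily recombinant human TIMP2 (rTIMP2, a secreted inhibitor of matrix metalloproteinases), bear on lung tumours. In the subcutaneous model, wild-type mice carried LL/2-Luc2 cells, a luciferase-tagged Lewis lung carcinoma line, under the skin of the flank, and their early metastatic lungs came from 3 groups: HBSS, the salt solution used as the control (n = 5), rTIMP2 from day 0 (n = 5), and rTIMP2 that began on day 7 (n = 4). For the intratracheal model, the same cell line was given into the airway of wild-type (WT) mice or mice with mutant Timp2 (MT2), which then had HBSS or rTIMP2, and lungs without tumour were added for each genotype, with n = 5 in all 6 groups. The dose of rTIMP2 was 200 µg per kg per day into the peritoneum, no start day is given for the intratracheal mice, and the labels give neither the age or sex of the mice, nor the time of collection, nor the time between the last injection and collection.

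Values are normalized counts, and differences are log2 fold changes of the normalized count plus 1, with their standard error (SE) from limma. A gene was called when its Benjamini-Hochberg adjusted p over all genes tested was under 0.05. The labels do not say how the numbered samples of a group were obtained, so p-values measure the spread between these samples, part of which may be technical. Estimated depth, in units of 1e6 reads, was 14.9 to 19.4 in the subcutaneous libraries and 10.7 to 17.1 in the intratracheal ones.

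The promoters of the members were searched for classical elements of this response close to the start of transcription. RefSeq sequence (GRCm38.p6) was held for 32 of the 39 members, with 43 start sites, and the 250 bases before each start were searched on both strands. A CArG box, the element bound by SRF, was found in 1.47% of all 32851 promoters and in those of Dusp5, Egr2, Srf and Zfp36. The CRE TGACGTCA was present in 1.55% of all promoters and in Btg2, Dusp1, Maff and Slc25a25. An AP-1 site, TGANTCA, was present in 6.75% of all and in Csrnp1 alone of the 32 members. The EGR site GCGNGGGCG was in 4.7% of all and in 12 of the 32 members, and the heat shock element core TTCNNGAA was in 7.17% of all and in Ccn1, Egr2, Sertad1 and Slc25a25. Members with several start sites had more sequence searched than a single promoter, and a match is only a run of letters in this window. Sequence farther upstream was not searched, and some members had no sequence held, so a member not named here may still carry the element. Below are 4 promoters with a motif among the members that differed most in the subcutaneous lungs, and that of Srf, which was added after its values were seen. Capitals mark motifs, each line reads 5′ to 3′, and the last base is the one just before the start.
Nr4a1 (plus strand, chr15:101266596-101266845; 1 EGR site): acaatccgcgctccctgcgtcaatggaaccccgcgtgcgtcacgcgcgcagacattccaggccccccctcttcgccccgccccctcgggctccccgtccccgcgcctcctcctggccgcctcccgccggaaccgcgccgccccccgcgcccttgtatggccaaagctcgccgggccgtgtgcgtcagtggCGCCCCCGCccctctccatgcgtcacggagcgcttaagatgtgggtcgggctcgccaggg
Klf4 (minus strand, chr4:55532476-55532725; 2 EGR sites): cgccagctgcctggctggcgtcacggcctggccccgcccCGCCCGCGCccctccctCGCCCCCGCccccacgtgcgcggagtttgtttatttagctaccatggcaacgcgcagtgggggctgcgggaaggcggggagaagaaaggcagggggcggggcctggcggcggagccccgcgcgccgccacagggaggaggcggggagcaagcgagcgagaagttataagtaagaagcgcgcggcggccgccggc
Csrnp1 (minus strand, chr9:119983024-119983273; 2 AP-1 sites): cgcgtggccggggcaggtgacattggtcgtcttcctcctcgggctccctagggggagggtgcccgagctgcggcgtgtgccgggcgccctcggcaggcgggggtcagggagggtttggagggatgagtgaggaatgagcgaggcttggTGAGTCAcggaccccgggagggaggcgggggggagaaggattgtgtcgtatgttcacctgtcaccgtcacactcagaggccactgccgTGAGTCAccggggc
Maff (plus strand, chr15:79347270-79347519; 1 EGR site, then 1 CRE): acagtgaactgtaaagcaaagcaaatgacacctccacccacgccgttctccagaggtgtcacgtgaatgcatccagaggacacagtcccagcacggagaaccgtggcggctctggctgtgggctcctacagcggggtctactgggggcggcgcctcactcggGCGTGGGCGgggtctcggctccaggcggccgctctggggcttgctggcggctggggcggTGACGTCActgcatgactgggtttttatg
Srf (minus strand, chr17:46556163-46556412; 1 EGR site, then 2 CArG boxes): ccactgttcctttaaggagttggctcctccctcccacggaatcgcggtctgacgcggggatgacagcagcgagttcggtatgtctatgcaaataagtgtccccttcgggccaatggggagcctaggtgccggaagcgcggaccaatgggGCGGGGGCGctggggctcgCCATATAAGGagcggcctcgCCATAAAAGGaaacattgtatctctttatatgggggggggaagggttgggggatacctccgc
Of the promoters shown, that of Srf alone holds CArG boxes, the element that its own product binds.

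Several libraries stood apart, and some go with the groups. Among subcutaneous lungs, HBSS replicate 1 carried squamous and skeletal muscle transcripts (Krt13 21178 and Acta1 7526, against at most 236 and 50.8 elsewhere), and replicate 1 of rTIMP2 from day 0 was high in S100a8, Hba-a1 and Ptprc. Acta1 was over 1000 in 5 lungs given cells into the airway, namely WT HBSS replicates 1 and 4, MT2 HBSS replicate 4 and WT rTIMP2 replicates 2 and 3. Luc2, the luciferase reporter of the tumour cells, had a listed value of 0 in the 10 lungs without tumour and in WT rTIMP2 replicates 2, 3 and 5, and was 0.983 in MT2 rTIMP2 replicate 2, against 23.3 to 75.5 in the other 16 lungs given cells into the airway. The alveolar marker Sftpc was present in every library but ranged from 4598 in an MT2 HBSS lung to 244730.0 in a subcutaneous HBSS lung. Timp2 was 10619 ± 519 (SD, n = 5) in WT and 6105 ± 144 in MT2 tumour-free lungs, so Timp2 transcript was still counted in MT2 lungs. With tumour and HBSS it was 6900 ± 838 in WT and 8809 ± 2371 in MT2 lungs, so it was not lower in MT2 there. With rTIMP2 after intratracheal cells it was 8731 ± 1834 in WT and 7019 ± 1658 in MT2 lungs. Sex-linked transcripts also differed between sets: Ddx3y was 1139 to 1714 in the subcutaneous lungs, at most 5.78 in tumour-free lungs, 123 to 672 in lungs with tumour and HBSS, and 234 to 1321 in lungs given rTIMP2 after intratracheal cells. Xist was 3.75 to 40.8 in the subcutaneous lungs, 4118 to 6657 in tumour-free lungs and 1153 to 8305 in lungs with tumour and HBSS. It was 42.2, 92.4 and 54.5 in WT rTIMP2 replicates 2, 3 and 5 and 119 in MT2 rTIMP2 replicate 2, the lungs with Luc2 near 0, and 1778 to 4843 in the other 6 lungs given rTIMP2. The part of these differences in the results below was not tested.

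**Figure D1:**
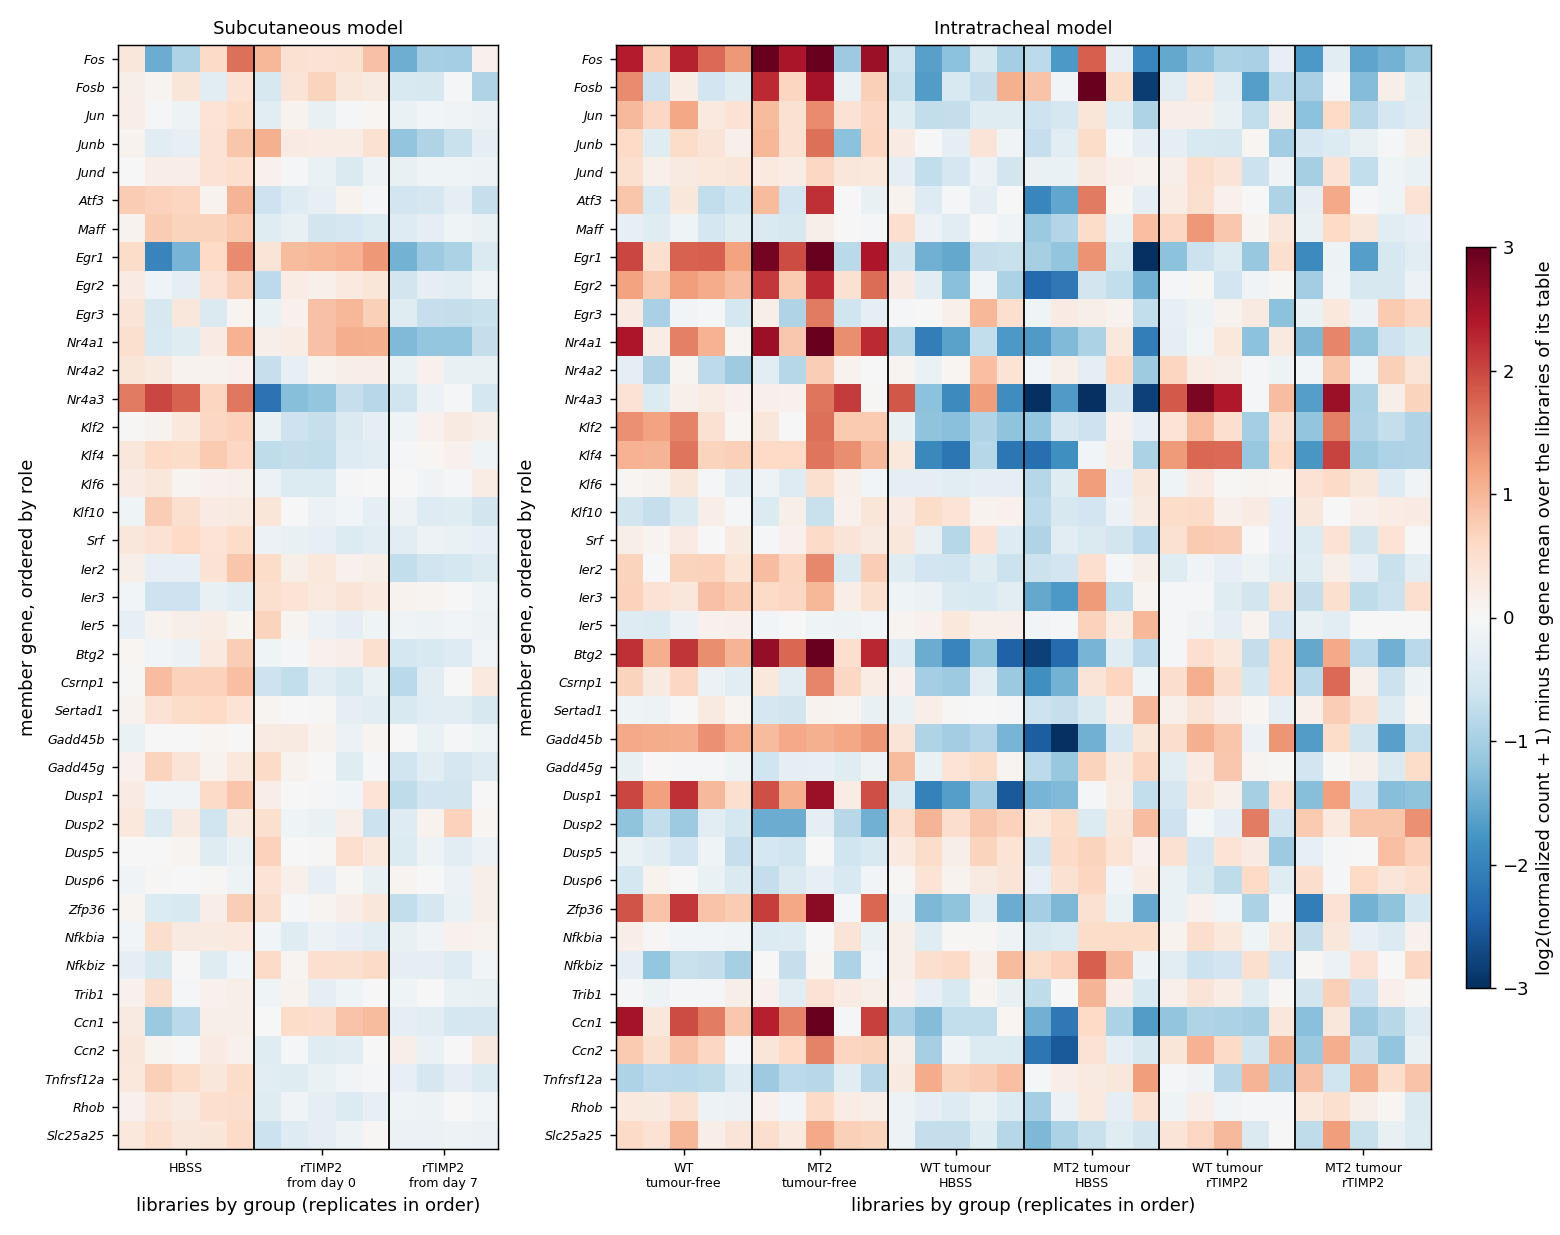
Each column is 1 library and each row 1 member; colour is log2(normalized count + 1) minus the mean of the gene over all libraries of that table, with colours capped at -3 and 3. In the intratracheal panel Fos, Egr1, Nr4a1, Btg2, Dusp1, Zfp36 and Ccn1 are red in most tumour-free lungs and pale or blue in most lungs with tumour (MT2 HBSS replicate 3 is an exception for Fos and Egr1), and in the subcutaneous panel Nr4a3 is red in the 5 HBSS lungs and pale or blue in the 9 lungs of treated mice.

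With rTIMP2 from day 0, a large share of the early genes was lower in the lungs of mice with a flank tumour. Against HBSS, 15 of the 39 members fell and 2 rose, so 43.6% were called, against 8.1% of all 17282 genes tested. The background was 4.21% for lower calls and 3.88% for higher ones. The median log2 fold change of the members was -0.27 and that of all genes -0.0031. Of the 17 called members, 16 had no overlap between the groups, where 76% of all called genes and 9.09% of all genes tested had none.

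Nr4a3 and Klf4 had the largest falls. Nr4a3, an orphan receptor induced by growth factors and cyclic AMP, was 383, 524, 445, 205 and 395 in the HBSS lungs and 27.3, 52.8, 58.2, 79.8 and 72.7 with rTIMP2 from day 0. Every treated lung was below every HBSS lung, and the log2 fold change was -2.75 ± 0.32 (limma adjusted p = 0.00087). Klf4, a factor of quiescent endothelium and of epithelial barriers, was 5555, 6648, 6458, 7537 and 6725 in HBSS lungs and 2587, 2686, 2624, 3354 and 3502 in treated lungs, again without overlap (log2 -1.16 ± 0.10, limma adjusted p = 3.2e-05). Klf2, which laminar shear stress induces in endothelium, fell by less (log2 -0.79 ± 0.14), as did Klf6 (log2 -0.39 ± 0.094). Klf10, a target of TGF-beta, was 1339 ± 289 and 1039 ± 190.1 (SD, n = 5 each) and was not called. The other NR4A receptors were not called either: Nr4a2 gave a log2 fold change of -0.29 ± 0.15 and Nr4a1 one of 0.50 ± 0.33. In bulk tissue, fewer cells that express a gene and less of its RNA per cell cannot be told apart.

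Within AP-1, Atf3, Maff and Jund fell, and the other 4 members were not called. Atf3, a stress-induced repressor, was 578, 554, 539, 371 and 692 in HBSS lungs and 223, 259.9, 288, 366 and 337 in treated lungs, all of them lower (log2 -0.88 ± 0.17, limma adjusted p = 0.0082). Maff, a small MAF protein, fell from 1221 ± 213 to 602 ± 54.0 (SD, n = 5 each) without overlap (log2 interval -1.26 to -0.75, limma adjusted p = 0.00024). Jund, the JUN family member with the steadiest expression, fell slightly, with overlapping groups (log2 -0.41 ± 0.11, limma adjusted p = 0.036). Fos itself was 1559.7, 432, 643, 1822 and 3823 in HBSS lungs and 2451, 1693, 1640.2, 1674 and 2257 in treated lungs. The treated values all lay inside the range of the HBSS values, and the log2 fold change of 0.62 ± 0.56 has an interval of -0.67 to 1.91. Fosb, Jun and Junb were not called, with log2 fold changes of 0.087, -0.27 and 0.29.

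The EGR factors, zinc finger proteins that stand with FOS at the front of the response, were not called. Egr1 was 2375, 412, 615, 2457 and 4344 in HBSS lungs and 2112, 3137, 3247, 3364 and 4004 in treated lungs, so the HBSS mice alone spanned both ends of the scale (log2 1.10 ± 0.65, interval -0.40 to 2.60). Egr2 and Egr3 gave -0.16 ± 0.24 and 0.52 ± 0.25 on the log2 scale. The spread of the HBSS lungs had the same shape in several members: replicates 2 and 3 held the lowest pair of values and replicate 5 the highest for 10 members, namely Fos, Jun, Junb, Egr1, Egr2, Nr4a1, Ier2, Btg2, Dusp1 and Zfp36. These genes were singled out after their values were seen. Nr4a3 did not follow that order, with its lowest HBSS value in replicate 4.

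Srf, which encodes the factor at the head of the response, fell with little spread. Its values were 1303, 1392, 1555, 1363 and 1523 in HBSS lungs and 913, 885, 871, 781 and 827 in treated lungs (log2 -0.74 ± 0.07, limma adjusted p = 5.8e-05). Csrnp1, a nuclear protein induced by AXIN, fell from 1775 ± 389.7 to 804 ± 124 (SD, n = 5 each; log2 -1.12 ± 0.17), and Sertad1, a cofactor of CDK4 and E2F, also fell (log2 -0.52 ± 0.11). Ier3, a survival factor induced by NF-kappaB and stress, went the other way. It was 1574, 1081, 1079, 1417 and 1316 in HBSS lungs and 2312, 2217, 2045, 2185 and 2040.1 in treated lungs, all of them higher (log2 0.75 ± 0.099, limma adjusted p = 0.0004). Ier2, Ier5, Btg2, Gadd45b and Gadd45g were not called and had log2 fold changes between -0.27 and 0.14.

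Of the 8 feedback inhibitors, Nfkbia fell and Nfkbiz rose. Nfkbia, which encodes the inhibitor that holds NF-kappaB in the cytoplasm, went from 2741 ± 393 to 1942 ± 146 (SD, n = 5 each; log2 -0.49 ± 0.096, limma adjusted p = 0.0068). Nfkbiz, which encodes a nuclear cofactor of NF-kappaB, was 364, 319, 447, 343 and 414 in HBSS lungs and 657, 466, 627, 621 and 653 in treated lungs, without overlap (log2 0.68 ± 0.11, limma adjusted p = 0.0022). The MAP kinase phosphatases Dusp1, Dusp2, Dusp5 and Dusp6, the decay factor Zfp36 and the pseudokinase Trib1 were not called, with log2 fold changes from -0.27 to 0.41.

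Among the effectors, 4 of 5 fell. Slc25a25, a mitochondrial carrier for ATP and magnesium, was 905, 1028, 912, 929 and 1068 in HBSS lungs and 463, 554, 598, 648 and 734 in treated lungs (log2 -0.70 ± 0.10). Tnfrsf12a, the receptor for TWEAK, fell by a like amount (log2 -0.70 ± 0.092), and so did Rhob, a small GTPase of endosomes (log2 -0.64 ± 0.089). Ccn2, the connective tissue growth factor, fell less (log2 -0.38 ± 0.094). Ccn1, a matrix protein and target of SRF and YAP, was 3154, 1211, 1483, 2947 and 2969.9 in HBSS lungs and 2649, 3819, 3795, 4767 and 5042 in treated lungs and was not called (log2 0.84 ± 0.32, limma adjusted p = 0.14). The number of called members was 18 without HBSS replicate 1 and 17 without replicate 1 of the treated group, and 14 to 18 over all single libraries left out. The calls of Jund, Klf6 and Ccn2 were each lost without at least 1 library.

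**Figure D2:**
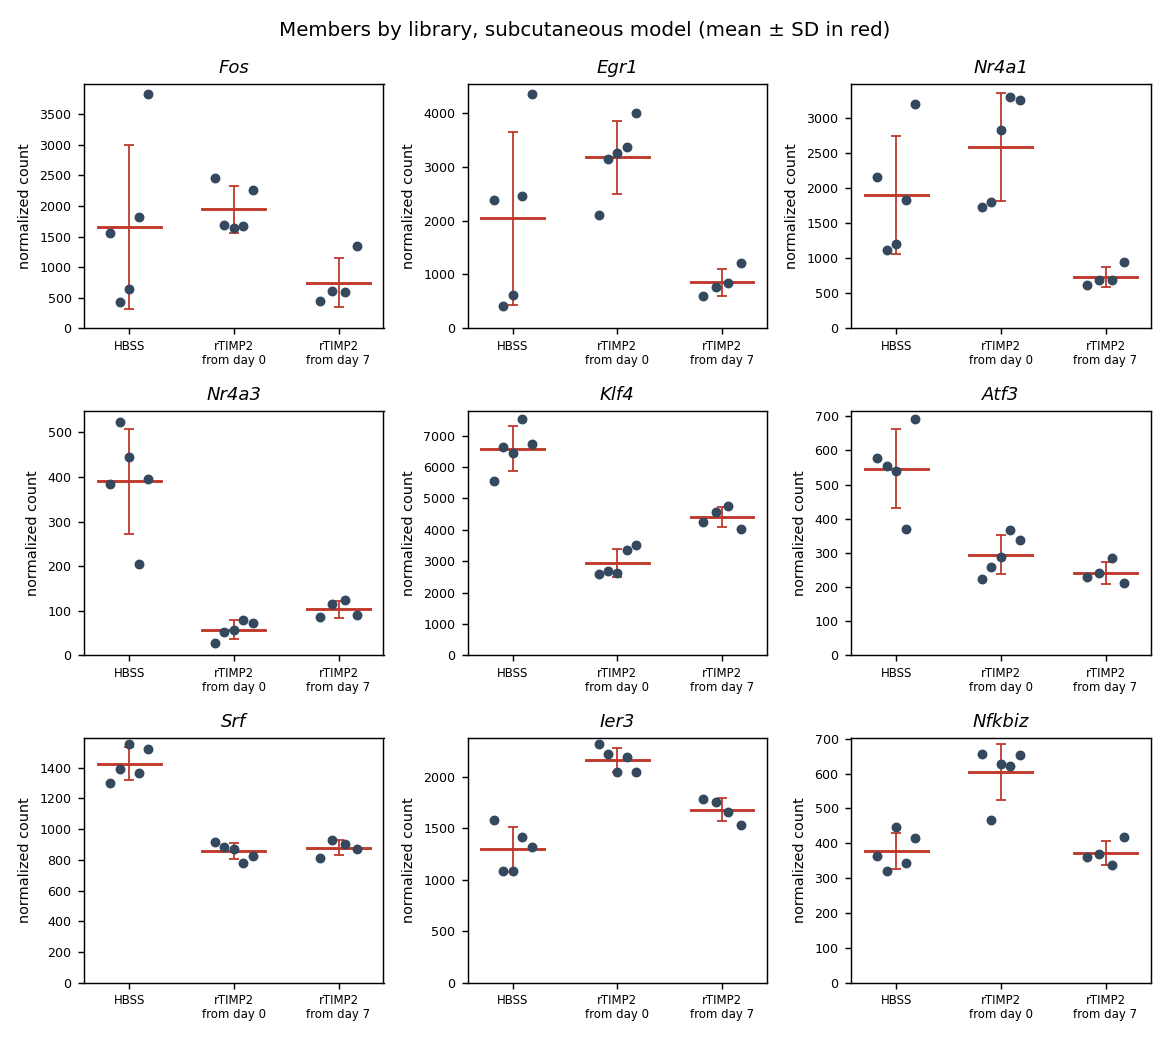
Normalized counts of 9 members in each lung of the subcutaneous model (points), with the mean and SD in red. Nr4a3, Klf4, Atf3 and Srf lie lower in all 9 lungs of treated mice than in any HBSS lung; Fos and Egr1 span 432 to 3823 and 412 to 4344 among the HBSS lungs.

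With rTIMP2 from day 7, 15 members fell and 1 rose against the same HBSS lungs. That is 41.0% of the members, against 10.4% of the 17389 genes tested (5.92% lower, 4.46% higher). Of the 16 called members, 13 had no overlap between the groups, where 87.5% of all called genes and 14.6% of all genes tested had none. The members' median log2 fold change was -0.53 and that of all genes 0.0070, and 36 of the 39 had a value below 0. The comparisons from day 0 and from day 7 share their 5 control libraries, so an unusual control would move both, and their values are given side by side only.

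Nr4a3 was 85.4, 115, 125 and 90.0 with rTIMP2 from day 7, below every HBSS lung (log2 -1.85 ± 0.25, limma adjusted p = 0.0035). Its relative Nr4a1 was 2153, 1118, 1209, 1829 and 3200.4 in HBSS lungs and 614, 687, 688 and 943 in treated lungs. All 4 treated values were the lower ones, and the call was marginal (log2 -1.28 ± 0.33, limma adjusted p = 0.0495). Klf4 was 4248, 4571, 4768 and 4039, also below every HBSS lung (log2 -0.58 ± 0.084). Klf10 fell (log2 -0.69 ± 0.15), while Klf2 and Klf6 were not called (log2 -0.24 ± 0.14 and -0.17 ± 0.077).

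Atf3 was 229.5, 241, 286 and 212 in lungs of mice treated from day 7, all below the HBSS values (log2 -1.15 ± 0.16, limma adjusted p = 0.0024). Maff fell to 676 ± 51.4 (SD, n = 4; log2 -0.83 ± 0.13), and Jund fell (log2 -0.42 ± 0.09). Fosb, an AP-1 partner that was not called from day 0, was called here (log2 -0.61 ± 0.18, limma adjusted p = 0.048), with overlapping groups. Fos was 442, 608, 601 and 1339.8 and Egr1 602, 764, 840.0 and 1205. Neither was called, with log2 fold changes of -0.87 ± 0.69 and -0.81 ± 0.75, and HBSS replicates 2 and 3 were about as low.

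Srf was 812, 932, 902 and 873, all below the HBSS lungs (log2 -0.70 ± 0.068, limma adjusted p = 0.00032). Sertad1 fell to 394 ± 20.8 (SD, n = 4; log2 -0.81 ± 0.092). Gadd45g, a stress sensor that acts on p38 signalling, fell to 235 ± 19.4 from 407 ± 67.1 (log2 -0.78 ± 0.11). Ier3 was again higher, with some overlap (log2 0.39 ± 0.11, limma adjusted p = 0.038). Of the feedback inhibitors Trib1 alone was called (log2 -0.32 ± 0.094, limma adjusted p = 0.047), and Nfkbiz was not called (371 ± 34.4 against 377 ± 52.4). Tnfrsf12a, Slc25a25 and Rhob fell (log2 -0.85 ± 0.091, -0.60 ± 0.064 and -0.45 ± 0.081), and Ccn1 and Ccn2 were not called. The other 16 members, among them Ier2, whose groups did not overlap, were not called and had log2 fold changes between -0.91 (Junb) and 0.15 (Dusp2).

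The called members numbered 11 to 16 over all single libraries left out, and 16 without HBSS replicate 1. The calls of Fosb, Nr4a1, Trib1, Ier3 and Klf10 were each lost without at least 1 library.

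**Figure D3:**
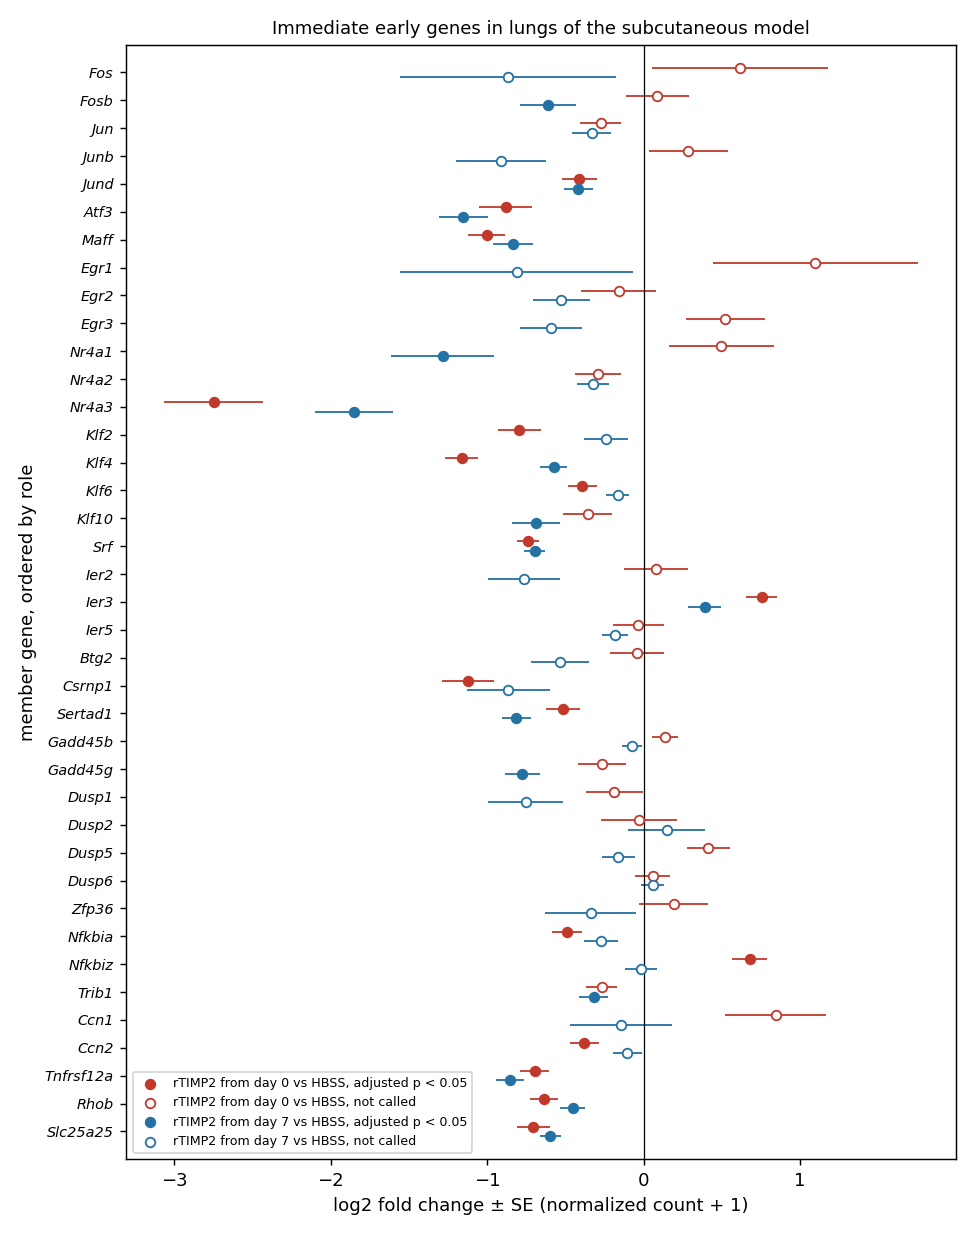
Log2 fold change of each member against HBSS (point) with its SE (bar), for rTIMP2 from day 0 in red and from day 7 in blue; filled points have an adjusted p under 0.05. Nr4a3 lies farthest left in both (-2.75 and -1.85), Ier3 lies right of 0 in both, and Fos, Egr1 and Nr4a1 have wide bars on opposite sides of 0.

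A direct comparison of both treated groups, which needs no HBSS lung, called 5 of 39 members (12.8%, against 0.235% of 17481 genes, 0.0801% lower and 0.154% higher). Egr1 was lower with treatment from day 7: the values above, 2112 to 4004 from day 0 and 602 to 1205 from day 7, did not overlap (log2 -1.91 ± 0.24, limma adjusted p = 0.032). Ier2, a nuclear regulator, was 2849, 2182, 2418, 2111 and 2188 from day 0 and 1154, 1276, 1345 and 1452 from day 7 (log2 -0.84 ± 0.092, limma adjusted p = 0.0015), but its call was lost with all groups in 1 fit (limma adjusted p = 0.11) and with the replicate number as a block (0.064). Nfkbiz (log2 -0.70 ± 0.10) and Ier3 (log2 -0.36 ± 0.067) were also lower from day 7, and Klf4 was higher (log2 0.59 ± 0.098). All 5 had no overlap between the groups, as had all 41 genes called here. A further 8 members did not overlap and were not called, namely Fos, Junb, Egr3, Nr4a1, Nr4a3, Klf2, Dusp5 and Ccn1. Together these were 33.3% of the members, beside 5.55% of all genes tested. The Nr4a1 difference was large (log2 -1.78 ± 0.25, limma adjusted p = 0.051). The median member had a log2 fold change of -0.21, against -0.0013 over all genes. With all groups in 1 fit, Egr1 and Ier3 lost their calls too, and with the block Ier3, Klf4 and Nfkbiz did. Leaving out single libraries in turn, Ier2 always kept its call. Egr1 and Ier3 each lost theirs in 7 of these fits, Klf4 in 5 and Nfkbiz in 3. Apart from Ier2, the calls were thus not kept in every fit with fewer lungs. The log2 fold changes moved little over all alternatives, from -2.09 to -1.76 for Egr1 and -0.39 to -0.32 for Ier3. Those of Klf4 ranged from 0.54 to 0.65 and those of Nfkbiz from -0.79 to -0.65. The called members numbered 10 without replicate 1 of the day 0 group, the lung high in Hba-a1 and S100a8, and 2 without its replicate 2 or 3. They numbered 3 without its replicate 4, and 1 without replicate 1, 2 or 3 of the day 7 group.

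Other genes around the same pathways moved in part. In the comparison from day 0, 4 of 10 tested other AP-1 and bZIP factors fell (Cebpd log2 -0.96 ± 0.23, Jdp2 -0.65 ± 0.10, Mafk -0.49 ± 0.085, Atf4 -0.40 ± 0.082). Of 13 MAP kinase feedback inhibitors, 3 fell and 1 rose, led by Dusp8, a phosphatase of JNK and p38 (log2 -1.50 ± 0.14), and Errfi1, an inhibitor of the EGF receptor (log2 -1.20 ± 0.16). Of 10 CREB factors and targets, 3 fell: Crem, a cyclic AMP-responsive factor (log2 -1.23 ± 0.13), the phosphodiesterase Pde4b (log2 -0.80 ± 0.11) and the clock gene Per1 (log2 -0.68 ± 0.13). Among 26 tested other early response genes, 6 fell and 2 rose, with Arc (log2 -1.50 ± 0.34), Cdkn1a (-1.47 ± 0.19) and Areg (-1.15 ± 0.24) the lowest and Rgs2 (1.14 ± 0.15) the highest. Of 15 cytoskeletal targets of SRF and MRTF, Tpm1 alone was called (log2 -0.39 ± 0.099). Their median log2 fold change was -0.19, with 12 of the 15 below 0. An unadjusted p under 0.05 was found for 7 of them and for 4496 of all 17282 genes tested. Of 6 SRF and ETS regulators Mrtfb (0.36 ± 0.079) and Elk3 (0.26 ± 0.066) rose. None of 10 NF-kappaB feedback genes and targets was called by limma, with 0 at an unadjusted p under 0.05.

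From day 7 the counts were 3 of 10 lower for the other AP-1 and bZIP factors, 2 of 13 lower for the feedback inhibitors, 2 of 10 lower for the CREB genes, and 9 lower and 1 higher of 25 tested other early response genes. Dusp8 (-0.98 ± 0.12), Crem (-0.78 ± 0.13), Arc (-1.71 ± 0.38), Cdkn1a (-1.01 ± 0.23) and Areg (-0.90 ± 0.18) were among the called. The matrix protein Thbs1 fell (log2 -0.85 ± 0.12), and Actg1 and Vcl were the called ones of 15 cytoskeletal targets (log2 -0.30 ± 0.074 and -0.32 ± 0.094). Of the 10 NF-kappaB genes, 0 were called by limma and 2 had an unadjusted p under 0.05, as had 4687 of all 17389 genes tested. Between the treated groups, Pde4b was higher from day 7 than from day 0 (log2 0.82 ± 0.087, limma adjusted p = 0.0015).

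In the subcutaneous lungs, heat shock genes and markers of lung and neighbouring tissue differed along with these genes. All 9 heat shock genes fell from day 0 and 8 of 9 from day 7, and 4 were higher from day 7 than from day 0. Hspa1a, an inducible chaperone whose reads may be shared with its near-copy Hspa1b, was 2506, 5964, 3342, 3519 and 6755 in HBSS lungs, 312, 546, 421, 484 and 755 from day 0 and 560.0, 582, 394 and 299.5 from day 7. The summed level of the 9 genes was 46432 to 81934 in HBSS lungs, 20146 to 22890 from day 0 and 27832 to 36468 from day 7, with no overlap. Of 8 cardiac muscle markers, 2 fell from day 0 and 1 from day 7, and their sum was 10827 to 20385, 7152 to 14861 and 9174 to 11531 in the same order. Of 4 mesothelial markers, 1 fell from day 0 (Wt1, log2 -2.08 ± 0.47) and 3 from day 7, with sums of 941 to 4487, 588 to 1529 and 421 to 809. No cardiac or mesothelial marker was at 0 in a whole group. All of these cardiac and mesothelial markers, and 4 alveolar type 2 markers, had log2 fold changes below 0 in both comparisons with HBSS. Of the alveolar type 2 markers, 1 was called from day 0 and 2 from day 7. Sftpc was 205729 to 244730 in HBSS lungs, 147062 to 193667 from day 0 and 158813 to 182400 from day 7. Of 4 endothelial markers, 3 were above 0 in each comparison. The part of stress during collection, or of heart, pleura and alveolar tissue in the piece, was not tested.

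In the intratracheal model, lungs with tumour and HBSS differed from tumour-free lungs at most genes tested, so the counts of members stand against a high background. In WT mice 20 members fell and 8 rose (71.8%, against 70.5% of 16967 genes tested, 37.7% lower and 32.8% higher). In MT2 mice 16 fell and 5 rose (53.8%, against 67.4% of 16999, 35.9% lower and 31.5% higher). The share of members called was near the background in WT and under it in MT2, so these counts are no result about the members. Groups without overlap were common too: 57.1% of all genes tested in WT and 58% in MT2, beside 51.3% and 25.6% of the members. Their median log2 fold change was -0.49 in WT and -0.81 in MT2, where all genes had -0.073 and -0.054. The genotypes share no library here: 14 members fell in both (70.0% of the WT and 87.5% of the MT2 calls) and 5 rose in both (62.5% and 100.0%). Over all genes, 83.9% of the WT and 88% of the MT2 lower calls, and 82.2% and 85.5% of the higher ones, were shared, so the members' shares were not above the background for lower calls, and the higher ones are few. Sftpc was 16354 to 83334 in WT HBSS lungs and 169504 to 215943 in WT tumour-free lungs, and 4598 to 97273 and 171137 to 195966 in MT2, so this alveolar transcript was lower along with every change below. In both genotypes the 4 alveolar type 2, 3 alveolar type 1, 2 club, 4 endothelial and 4 leukocyte markers were all lower too. The summed level of the 4 endothelial markers was 46951 to 52272 without tumour and 3359 to 17049 with tumour in WT, and 47592 to 53845 and 1929 to 8215 in MT2, with no marker at 0. The submitters' sample numbers of the tumour-free lungs lie in a range apart from those of the lungs given cells. Anything else that differed between these sets of lungs cannot be told apart from tumour. The part of tissue makeup in the results was not tested.

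The nuclear factors at the front of the response were among the largest falls. Fos was 3421, 1115, 3294, 2153 and 1646 in WT tumour-free lungs and 443, 216, 284, 479 and 329 in WT lungs with tumour, without overlap (log2 -2.66 ± 0.32, limma adjusted p = 4.6e-05). In MT2 mice it was 6171, 3660.0, 7553, 312 and 3932 and 390.1, 200.0, 2304, 564 and 170.3. There 1 tumour-free lung (replicate 4) was as low as the lungs with tumour and 1 lung with tumour (replicate 3) was high, and the gene was called (log2 -2.71 ± 0.90, limma adjusted p = 0.019). Egr1 had the same exceptions, with log2 fold changes of -2.42 ± 0.30 in WT and -2.88 ± 0.89 in MT2, and in WT its ranges were 942 to 2697 and 234 to 462. Egr2, an EGR factor with roles in macrophages and T cells, fell without overlap in both (-1.53 ± 0.28 and -2.89 ± 0.45). Jun fell in both (-1.20 ± 0.17 and -1.18 ± 0.26), and Jund in WT (-0.76 ± 0.12). Junb, Fosb, Atf3, Maff and Egr3 were called in neither genotype.

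Nr4a1 fell from 1619 ± 1141 to 259.7 ± 104 in WT (SD, n = 5 each; log2 -2.46 ± 0.44) and from 3539.8 ± 2657 to 349 ± 265 in MT2 (log2 -3.28 ± 0.54), without overlap. Nr4a3 differed in its pattern. In WT lungs with tumour it was 279.8, 31.7, 19.4, 183 and 20.2, on both sides of the tumour-free values of 104, 57.2, 85.2, 89.7 and 83.5, and was not called. In MT2 lungs it was 7.15, 22.6, 7.73, 53.3 and 10.0 with tumour and 84.4, 83.8, 233, 328 and 77.8 without (log2 -3.08 ± 0.59, limma adjusted p = 0.00071). The difference between the genotypes was -2.59 ± 0.98 and did not pass the test (limma adjusted p = 0.36). The high WT values were in replicates 1 and 4, which also had Acta1 of 16329 and 4114. Nr4a2 rose in WT (log2 0.83 ± 0.27) and was not called in MT2.

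Klf4 was 3285, 3254, 4814, 2542 and 2606 in WT tumour-free lungs and 1978, 415, 353, 879 and 355 in lungs with tumour (log2 -2.37 ± 0.44, limma adjusted p = 0.00069), and its MT2 ranges, 2402 to 4832 and 333 to 1805, did not overlap either (log2 -2.02 ± 0.45). Klf2, like Klf4 a gene of endothelium, whose markers fell as given above, was lower in both (-1.87 ± 0.30 and -1.20 ± 0.31), Klf6 fell slightly in WT, and Klf10 rose in WT (log2 0.59 ± 0.17). Btg2, an antiproliferative gene induced by p53, had the largest fall of all members in WT and in MT2. It was 7844, 3677, 7615, 4500.4 and 3498 without tumour and 1305, 613, 434, 749 and 321 with tumour in WT (log2 -3.07 ± 0.37), and 10767, 5679, 13351, 2455 and 8302 and 247, 347, 657, 1329 and 1004 in MT2 (log2 -3.55 ± 0.53, limma adjusted p = 0.00012). Gadd45b, a stress sensor induced by NF-kappaB and TGF-beta, fell in both (-1.93 ± 0.27 and -2.54 ± 0.53). Srf was called in MT2 only (log2 -0.85 ± 0.16, against -0.30 ± 0.22 in WT), and the difference between genotypes, -0.55 ± 0.28, was not called (limma adjusted p = 0.52). Ier2, Ier3 and Csrnp1 fell in WT, Ier5 rose slightly in WT, and Sertad1 and Gadd45g were called in neither.

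The feedback inhibitors split. Dusp1, the phosphatase of p38 and JNK that stress induces at once, was 10840.2, 6365, 12506, 5328 and 3842 without tumour and 2015, 662, 863, 1323 and 471 with tumour in WT (log2 -2.92 ± 0.42), and it fell in MT2 (log2 -2.20 ± 0.45). Zfp36 fell in both (-2.20 ± 0.35 and -2.24 ± 0.51). In contrast, the ERK phosphatases Dusp5 and Dusp6 rose in both, Dusp5 by 0.81 ± 0.14 and 0.68 ± 0.23 and Dusp6 by 0.45 ± 0.14 and 0.59 ± 0.19. Dusp2, a phosphatase abundant in activated lymphocytes and myeloid cells, was 53.9, 75.6, 58.4, 101 and 87.5 without tumour and 183, 256, 182, 223 and 205 with tumour in WT (log2 1.49 ± 0.20), and rose in MT2 (log2 1.45 ± 0.30). Nfkbiz also rose in both (1.24 ± 0.19 and 1.10 ± 0.33). Nfkbia and Trib1 were called in neither.

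Among effectors, Tnfrsf12a was 330.3, 361, 359, 370.5 and 476 in WT tumour-free lungs and 761, 1348, 997, 1050.0 and 1179 with tumour (log2 1.48 ± 0.15, limma adjusted p = 1.5e-05), and rose without overlap in MT2 too (log2 1.17 ± 0.23). The matrix genes Ccn1 (-2.17 ± 0.39 and -2.93 ± 0.61) and Ccn2 (-0.89 ± 0.22 and -1.76 ± 0.51) fell in both, as did Slc25a25 (-1.07 ± 0.17 and -1.44 ± 0.21), and Rhob fell in WT. Outside the set, 5 of 9 heat shock genes rose and 0 fell in WT, and 1 rose and 3 fell in MT2. Of 11 other AP-1 and bZIP factors, 5 rose and 1 fell in WT, and 4 rose and 2 fell in MT2. Of 15 cytoskeletal targets of SRF and MRTF, 3 rose and 10 fell in WT, and 9 fell in MT2. Among these, the AP-1 factor Fosl1 (log2 8.26 ± 0.43 in WT and 7.99 ± 0.45 in MT2) and Myc (5.11 ± 0.20 and 4.89 ± 0.19) rose in both, Myc being among the 13 of 25 other early response genes that rose in WT and the 10 of 25 in MT2 (8 fell in each), and the smooth muscle targets of SRF, Tagln (-1.87 ± 0.35 and -3.54 ± 0.44) and Acta2 (-1.76 ± 0.28 and -3.61 ± 0.37), fell. The calls of Klf6 and Ier5 in WT and of Dusp5 and Fos in MT2 were each lost without at least 1 library, Fos without MT2 HBSS replicate 5 alone.

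**Figure D4:**
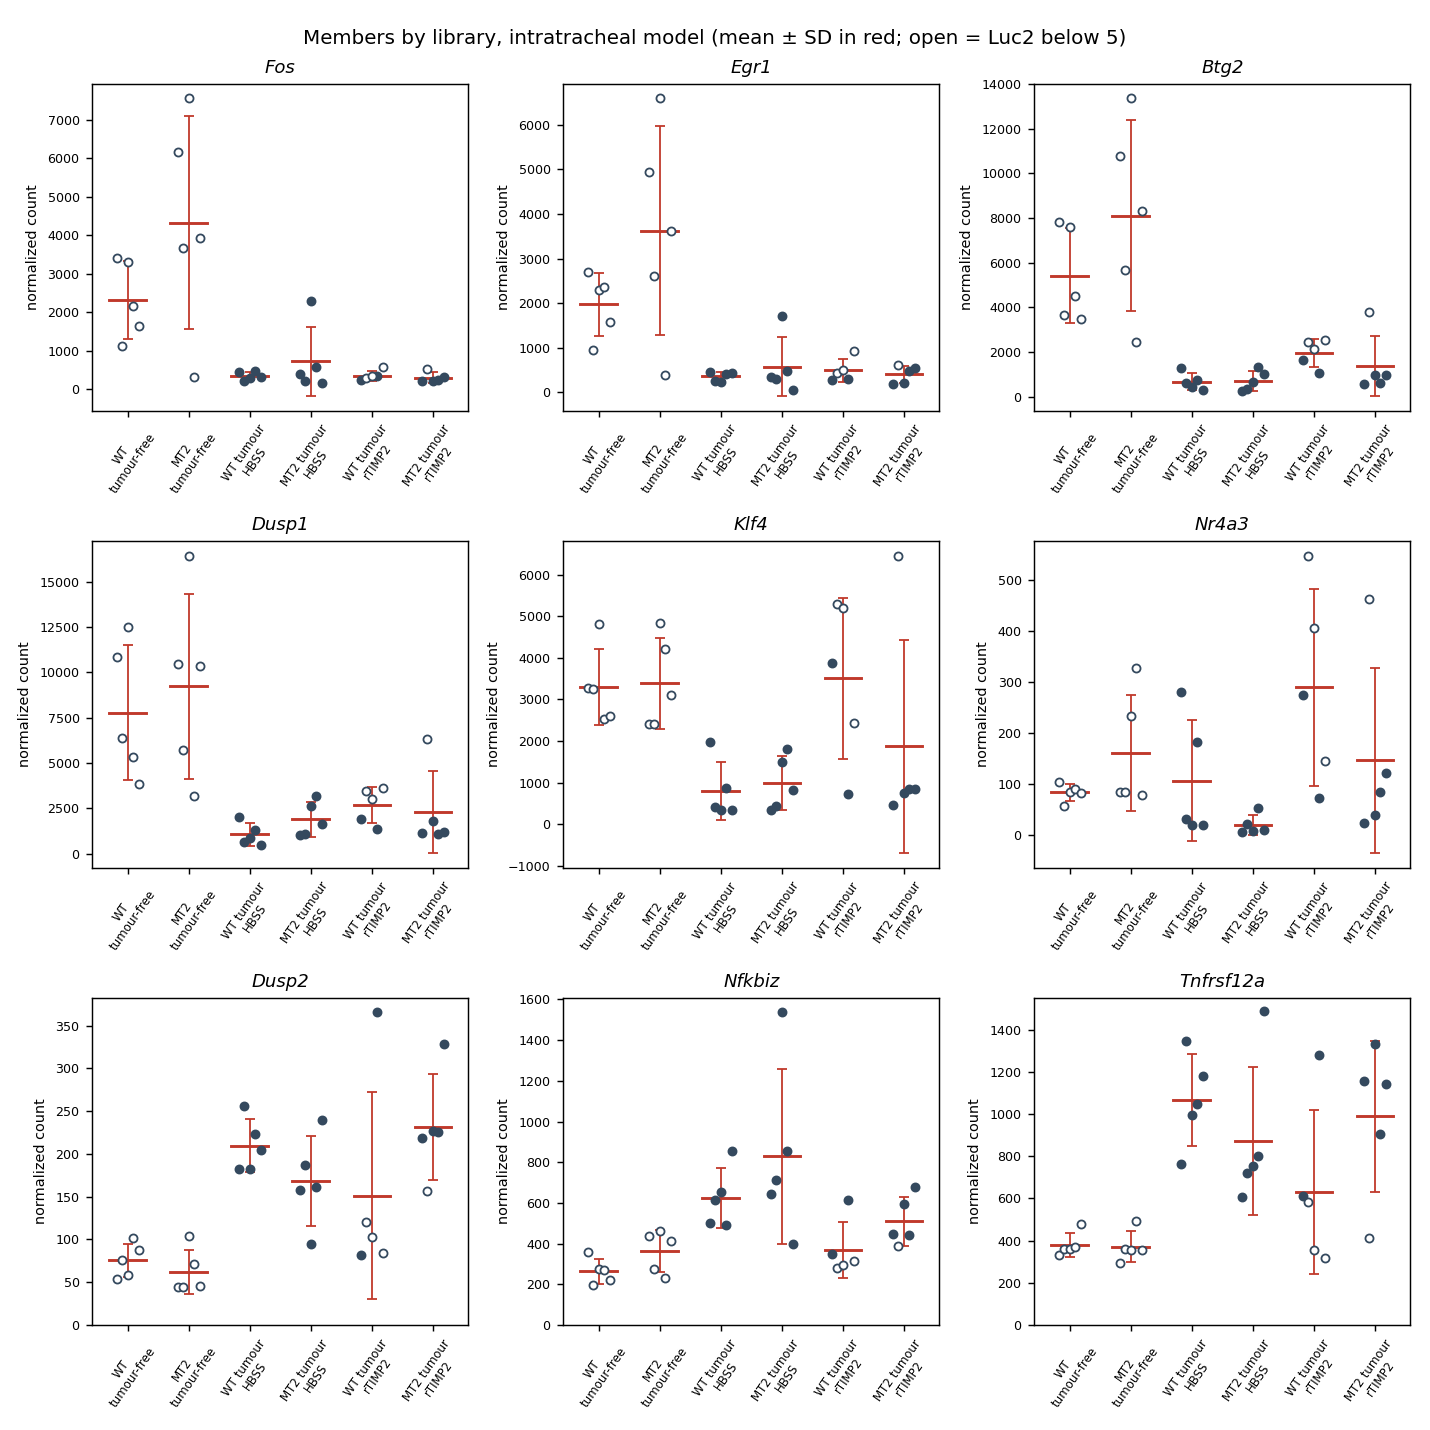
Normalized counts of 9 members in each lung of the intratracheal model (points, filled where Luc2 is 5 or more and open where it is lower), with the mean and SD in red. Fos, Egr1, Btg2 and Dusp1 are highest in tumour-free lungs, Dusp2 and Tnfrsf12a in lungs with tumour; for Klf4 the open point of MT2 rTIMP2, 6453, lies above the 4 filled ones at 474 to 853.

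No member was called between the genotypes. Without tumour, 0 of 39 members were called between MT2 and WT lungs by limma (background 0.0238% of 16774 genes, 0.0119% higher and 0.0119% lower). An unadjusted p under 0.05 was found for 1 member and for 1633 of these 16774 genes. With tumour and HBSS, 0 were called (0% of 16299 genes), and 3 had an unadjusted p under 0.05, as had 1208 of the 16299 genes. The limits were wide: for Fos the MT2 minus WT difference in tumour-free lungs was 0.45 ± 0.87, with an interval of -1.56 to 2.45. Nr4a1, at 3539.8 ± 2657 in MT2 and 1619 ± 1141 in WT, had an interval of -0.40 to 2.55, and Klf4 one of -0.57 to 0.61. In the test of whether the change with tumour differed by genotype, limma called 0 members (0.0223% of 17927 genes). There 4 members had an unadjusted p under 0.05, as had 1776 of the 17927 genes.

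The MT2 tumour-free lungs differed widely among themselves. Replicate 3 had the highest Fos (7553), Egr1 (6584), Nr4a1 (7872), Ccn1 (18711) and Dusp1 (16424), and replicate 4 had 312, 386, 1709.8, 1917 and 3167 for the same genes. These genes and lungs were picked out after their values were seen. In WT tumour-free lungs these genes spanned less, with Fos of 1115 to 3421 and Ccn1 of 2511 to 11226.

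Given rTIMP2, WT lungs with intratracheal cells had 8 members higher and 1 lower than with HBSS (23.1%, against 27.3% of 16908 genes, 16% higher and 11.3% lower). The members' share was thus not above that of all genes. The groups overlapped for all 9, where 14.8% of all called genes had no overlap. Among all members, called or not, 2 (5.13%) had no overlap, beside 4.93% of all genes tested. Klf4 was 1978, 415, 353, 879 and 355 with HBSS and 3879.9, 5288, 5197, 726 and 2423 with rTIMP2 (log2 2.20 ± 0.63, limma adjusted p = 0.04). The lungs high in Klf4 were replicates 1, 2, 3 and 5, and replicate 4 was low. Btg2 was 1305, 613, 434, 749 and 321 with HBSS and 1639, 2441, 2151, 1055 and 2555 with rTIMP2 (log2 1.62 ± 0.37). Gadd45b (1.49 ± 0.36), Dusp1 (1.42 ± 0.41), Klf2 (1.21 ± 0.35), Nr4a1 (1.20 ± 0.35), Csrnp1 (1.14 ± 0.33) and Slc25a25 (0.86 ± 0.26) were the other higher ones, and Nfkbiz was lower (-0.78 ± 0.24). Fos and Egr1 were not called: Fos was 351 ± 128 with rTIMP2 and 350.2 ± 109 with HBSS (SD, n = 5 each; log2 interval -0.63 to 0.62).

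The treated lungs differed in the reporter, in tissue markers and in sex-linked transcripts. Replicates 2, 3 and 5, in which Luc2 was at 0 and Xist at most 92.4, had Sftpc of 170056, 107764 and 195997. Replicate 1 had Luc2 of 23.3, Xist of 1963 and Sftpc of 111639. Its Klf4 of 3879.9, Klf2 of 3608 and Btg2 of 1639 were each above every HBSS lung. Its Klf4 was above that of replicate 5, whereas its Klf2 and Btg2 were below those of replicates 2, 3 and 5. Replicate 4, with Luc2 of 67.7, Xist of 2033 and Sftpc of 54067, had Klf4 of 726, Klf2 of 1325 and Btg2 of 1055, within the range of the HBSS lungs. The 4 endothelial markers were all higher with rTIMP2, with sums of 8243 to 50527 against 3359 to 17049. Without replicates 2, 3 and 5 only 2 treated lungs remained, 0 members and 0 genes were called, and the log2 difference was 1.44 for Klf4 and 1.11 for Btg2, so the lost calls say nothing about the reporter. No member was called after any 1 of 8 libraries was left out (WT HBSS replicates 2 to 5 and WT rTIMP2 replicates 1, 2, 3 and 5), whereas 14 were called without WT HBSS replicate 1 and 22 without WT rTIMP2 replicate 4. Treatment cannot be told apart in these lungs from the differences in reporter, tissue markers and sex-linked transcripts that went with it.

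In MT2 mice, 0 members were called by limma between rTIMP2 and HBSS (0% of 16248 genes). An unadjusted p under 0.05 was found for 4 members and for 1559 of the 16248 genes. Nr4a3 had the largest difference, 7.15, 22.6, 7.73, 53.3 and 10.0 with HBSS and 23.5, 463, 38.6, 85.5 and 122 with rTIMP2 (log2 2.44 ± 0.79, limma adjusted p = 0.44). Replicate 2, whose Luc2 was 0.983, held the highest value of the rTIMP2 group for Nr4a3, Klf4 (6453), Klf2 (7711), Nr4a1 (1786), Btg2 (3775) and Dusp1 (6339), while the other 4 lungs had Klf4 of 474 to 853. Its Hspa1a was 7569, against 83.0 to 326 in those 4. The change with rTIMP2 did not pass a test of difference between the genotypes for any member (0 called by limma, 0% of 17841 genes). In that test 6 members had an unadjusted p under 0.05, as had 1053 of the 17841 genes. For Klf4 that difference was -1.73 ± 1.00, with an interval of -3.82 to 0.35.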

How the data were processed

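The deposited values are a normalized signal, given by the authors as normalized counts, 1 per gene and library. Partek, Bowtie2, STAR and DESeq2 are named with build mm10, per the submitters' processing notes. Their versions and roles, the annotation and the use of strand are not stated there, so overlapping antisense genes cannot be told apart. Low values were whole multiples of a per-library step (tolerance 0.02) in 78.9 to 84.5% of cases, too few to recover reads. No count model was therefore fitted, and the step gave only the estimated depth. The number of pairs of libraries with identical values was 0. Groups came from the sample titles, because the treatment entries of rTIMP2-treated intratracheal mice carry a running number.

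For each comparison, lmFit and eBayes (trend and robust) of limma 3.58.1, under R 4.3.3, were run on log2(value + 1) of the groups compared, for genes that reached 10 in a number of samples equal to the smallest group. Tests were two-sided, p-values were adjusted by Benjamini-Hochberg over all genes tested, and the fit was tested on simulated data. Intervals are 95% confidence intervals. The alternatives were a pseudocount of 5, no filter, equal library totals, all groups in 1 fit, the replicate number as a block, and leaving out single libraries or sets of libraries. The members, the other gene lists and the marker lists were chosen with earlier results of these data known. The rule was to account for all members, with values for the called members of largest change, up to 10 in each direction, and for up to 4 called genes of each other list; further genes were named after their values were seen.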

Additional observations from a re-analysis of the deposited data

Results flagged for a closer look

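In each group of 4 or 5 lungs, the highest and lowest value of every member was compared with the nearest other value by Dixon's criterion. Chance meets it in about 1 in 20 groups of normally distributed values. Here it was applied to normalized counts without a log, for which that rate need not hold. The criterion was met in 37 of 351 sets of a member and a group (10.54%). The members of 1 lung are not independent, since they share its piece of tissue and its library. MT2 rTIMP2 replicate 2, the lung with Luc2 of 0.983, was the isolated highest value in 9 of these sets, and MT2 tumour-free replicate 3 and MT2 HBSS replicate 3 in 4 each. The explanation of these patterns was not tested.

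Among the subcutaneous HBSS lungs, the isolated values were Maff of 852 (lowest, next 1263) in replicate 1 and Gadd45b of 1049 (lowest, next 1198) in replicate 1. Among the subcutaneous rTIMP2 from day 0 lungs, the isolated values were Junb of 6162 (highest, next 4041) in replicate 1, Egr2 of 82.8 (lowest, next 158) in replicate 1 and Nfkbiz of 466 (lowest, next 621) in replicate 2. Among the subcutaneous rTIMP2 from day 7 lungs, the isolated values were Egr3 of 74.0 (highest, next 60.0) in replicate 1, Nr4a2 of 247 (highest, next 194) in replicate 2 and Slc25a25 of 645 (highest, next 638) in replicate 3. Among the WT tumour-free lungs, the isolated values were Fosb of 357 (highest, next 155) in replicate 1, Gadd45b of 1372 (highest, next 1182) in replicate 4 and Tnfrsf12a of 476 (highest, next 370.5) in replicate 5. Among the MT2 tumour-free lungs, the isolated values were Jund of 8551 (highest, next 7046) in replicate 3, Egr3 of 271 (highest, next 104) in replicate 3, Dusp5 of 272 (highest, next 197) in replicate 3 and Ccn2 of 5291 (highest, next 3004) in replicate 3. Among the WT tumour with HBSS lungs, the isolated values were Fosb of 279 (highest, next 95.8) in replicate 5, Klf2 of 2324 (highest, next 1444) in replicate 1 and Gadd45b of 697 (highest, next 288) in replicate 1. Among the MT2 tumour with HBSS lungs, the isolated values were Fos of 2304 (highest, next 564) in replicate 3, Fosb of 1382 (highest, next 241) in replicate 3, Egr1 of 1721 (highest, next 486) in replicate 3, Nr4a1 of 808 (highest, next 333) in replicate 4, Ccn1 of 3007 (highest, next 1031) in replicate 3 and Tnfrsf12a of 1488 (highest, next 799) in replicate 5. Among the WT with rTIMP2 lungs, the isolated values were Egr2 of 43.6 (lowest, next 60.4) in replicate 3, Dusp2 of 366 (highest, next 121) in replicate 4, Nfkbiz of 613 (highest, next 349) in replicate 4 and Ccn1 of 2523 (highest, next 1052) in replicate 5. Among the MT2 with rTIMP2 lungs, all of them were the highest value and in replicate 2: Nr4a1 of 1786 (next 469), Nr4a3 of 463 (next 122), Klf2 of 7711 (next 1651), Klf4 of 6453 (next 853), Btg2 of 3775 (next 982), Csrnp1 of 1565 (next 537), Dusp1 of 6339 (next 1824), Ccn2 of 3963 (next 1619.8) and Slc25a25 of 945 (next 344).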

How the results depend on the processing

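No called difference of a member changed direction under any alternative. Of 96 called member differences, 30 lost the call under at least 1 alternative, and 46 uncalled ones gained it. The median of all genes moved by less than 0.1 under equal library totals. With all groups in 1 fit, the calls over all genes became 2298 from day 0 against HBSS, 0 for genotype in tumour-free lungs, 119 for genotype in tumour lungs, 7773 and 575 for rTIMP2 in WT and MT2 lungs and 0 for genotype by tumour, and the members called from day 7 against day 0 became 2. With equal totals, 2 genes were called for genotype in tumour-free lungs, and with a pseudocount of 5, 1 gene was called for rTIMP2 in MT2 lungs. Without the treated libraries with Luc2 under 5, and likewise without libraries with Acta1 over 1000 (a choice made after seeing the data), 0 members and 0 genes were called for rTIMP2 in WT lungs, and without the latter 27 genes were called for genotype by tumour. Causes were not tested, except that leaving out libraries leaves fewer samples.

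The main fit did not pair the lungs by replicate number. No comparison had a correlation over 0.1 for every pair of same-numbered libraries, and in none did every library correlate best with its own number. For tumour in MT2, 4 of 5 libraries correlated best with their own number and 3 of 5 correlations were over 0.1. A rule that needs every pair cannot exclude pairing in part. With the replicate block the members called were 17 from day 0, 18 from day 7, 2 between the treated groups, 26 and 24 for tumour in WT and MT2, and 0 for rTIMP2 in WT. Over all genes the block gave 1087 calls from day 7, 22 between the treated groups, 0 for rTIMP2 in WT and 2 for genotype by tumour.

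Leaving out each library in turn, the members called ranged from 14 to 18 for rTIMP2 from day 0, 11 to 16 for rTIMP2 from day 7, 1 to 10 for day 7 against day 0, 26 to 29 for tumour in WT, 21 to 23 for tumour in MT2 and 0 to 22 for rTIMP2 in WT, and were 0 throughout for genotype in tumour-free lungs, genotype in tumour lungs, rTIMP2 in MT2, genotype by tumour and genotype by rTIMP2. Over all features the genes called ranged from 861 to 1453 for rTIMP2 from day 0, 834 to 2149 for rTIMP2 from day 7, 8 to 65 for day 7 against day 0, 11395 to 13018 for tumour in WT, 10879 to 12778 for tumour in MT2, 2 to 9 for genotype in tumour-free lungs, 0 to 1 for genotype in tumour lungs, 0 to 9584 for rTIMP2 in WT and 2 to 55 for genotype by tumour, and were 0 throughout for rTIMP2 in MT2 and genotype by rTIMP2.

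At this depth 1 read was worth about 1 normalized count, so low values, such as Nr4a3 of 7.15 in an MT2 HBSS lung, rest on few reads.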
